A study of Sus scrofa with 12 samples.

Results

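Protein synthesis starts when initiation factors bring the initiator tRNA, the small ribosomal subunit and an mRNA together, and it proceeds when elongation factors deliver aminoacyl-tRNAs and move the ribosome along. The genes of these factors (names beginning with EIF or EEF and a digit), of the cytoplasmic poly(A)-binding proteins (PABPC) and of the cytoplasmic polyadenylation element binding proteins (CPEB) were described here in testis and epididymis of the pig. Of the 30640 gene rows, 67 belonged to this set. The row's own name gave 64 of them, and the Ensembl identifier gave the other 3, EIF4B, EEF1E1 and EIF1AY. EIF5, EIF5A, EIF3K, EIF2S3, PABPC3 and EIF4EBP3 were not analysed here.

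The animals were 5 adult boars of an inbred line of Banna mini-pigs (BMI), a single strain, untreated and with no genetic change named in the labels. Each boar gave 1 short-read library of testis and 1 of epididymis, since the animal numbers in the file headers recur in both tissues, although the protocol in the labels speaks of RNA from mixed samples of 5. The labels put the age at 12 months. In the file headers, replicates 1 to 5 are of 12, 12, 11, 17 and 11 months, so that testis replicate 4 and epididymis replicate 4 come from the animal with the highest age in the headers. A pooled long-read library of each tissue was not analysed here.

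In the testis, germ cells pass through long phases in which mRNAs are stored and translated late, after transcription has stopped. CPEB proteins bind such stored mRNAs through elements ahead of the tail and set their poly(A) length, poly(A)-binding proteins coat the tail and contact eIF4G, and eIF4E holds the cap. Several of these factors exist as paralogs, some of which are known from germ cells. The epididymis is a secretory duct, with muscle around it, in which sperm mature.

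Library totals were 18715154 to 30211957 reads for testis and 17980578 to 21937263 for epididymis. Levels are CPM, the count per 1000000 reads of the library, and levels of different genes are compared only as CPM per kilobase of gene length. Marker genes matched the labels. The 9 markers of haploid germ cells summed to 12412 to 17370 CPM in testis and 26.0 to 514 in epididymis, and 4 Leydig cell markers to 12071 to 19252 against 26.3 to 33.6. Of 6 epididymal epithelium markers 5 were found, at 69.2 to 140 CPM in testis, where CRISP1 had 0 reads, and 14076 to 30130 in epididymis. The 4 smooth muscle markers summed to 182 to 306 against 4636 to 13020 CPM, and 5 Sertoli cell markers to 338 to 428 against 78.6 to 143. Epididymis replicate 3 stood apart in its epithelium, with 53.2 CPM of CRISP1 and 58.4 of SPINK14 where the other 4 had 1382 to 2680 and 2403 to 5270. EPPIN and LTF were also lowest there (918 and 547 CPM against 2187 to 4947 and 3751 to 6132), whereas NPC2, at 12499 CPM, lay within the 3232 to 18187 of the others. That library had the most haploid germ cell RNA of the epididymis libraries. The part of these differences in cell content in the results on translation factors was not tested. In bulk tissue, fewer cells of a type and less RNA per cell cannot be told apart.

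Testis replicate 4 is given apart for many of the named genes, and replicates 1, 2, 3 and 5, always in that order, are called the 4 other testis libraries. Every testis mean ± SD includes replicate 4, as does a range given for the testis as a whole. The signal recognition particle RNA, a structural RNA without a poly(A) tail, stood at 7888 to 9134 CPM in those 4, at 7.75 CPM in testis replicate 4 and at 1.00 to 8.27 CPM in the epididymis. The 9 haploid markers summed to 17370 CPM in testis replicate 4 and 12412 to 13815 in the 4 others, with PRM2, TNP1, TNP2, ODF1, AKAP4, ACRV1 and SPACA1 highest there, PRM1 lowest and TSSK6 within their range. The 5 meiotic markers summed to 528 against 946 to 1102 CPM, a difference carried by STAG3 (464 against 911 to 1061 CPM), while SYCP1, SYCP3 and DMC1 were highest in replicate 4 and HORMAD1 within the range of the others. Whether RNA content or cell content moved the translation factors in that library was not tested. In the 4 other testis libraries, the level of the signal recognition particle RNA differed from the epididymis along with the tissue. The part of that difference in the calls and ratios between the tissues was not tested, and in those libraries it cannot be told apart from tissue.

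Translation factors differed between the tissues in both directions. The EIF4E and PABPC families, and the EIF4G family by a weak call of EIF4G2, had paralogs called on opposite sides. Of the 67 genes, 65 had enough reads for a test, and EIF4E1B and PABPC4L did not. The quasi-likelihood test of edgeR, run on all genes with a call at an adjusted p under 0.05, placed 17 of the 65 higher in testis, where it placed 36.6% of all 17225 tested genes. It placed 26 higher in epididymis, against 37.8% of all genes, and 22 were not called. The median log2 fold change, testis over epididymis, was -0.34 for the 65 genes and -0.07 for all genes. A change beyond 2-fold was called for 7 of them in testis (27.3% of all genes) and 9 in epididymis (23.4%). In either direction 43 were called, against 74.4% of all genes. Every testis library exceeded every epididymis library for 14 (32.1% of all genes), and fell short of each for 18 (29.3%). When testis replicate 4 stood alone for the testis, 9 were called higher in testis (23.4% of 18896 genes) and 2 higher in epididymis (11.4%), 11 in all (34.7%). That fit takes its spread from the epididymis libraries alone.

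**Figure D1:**
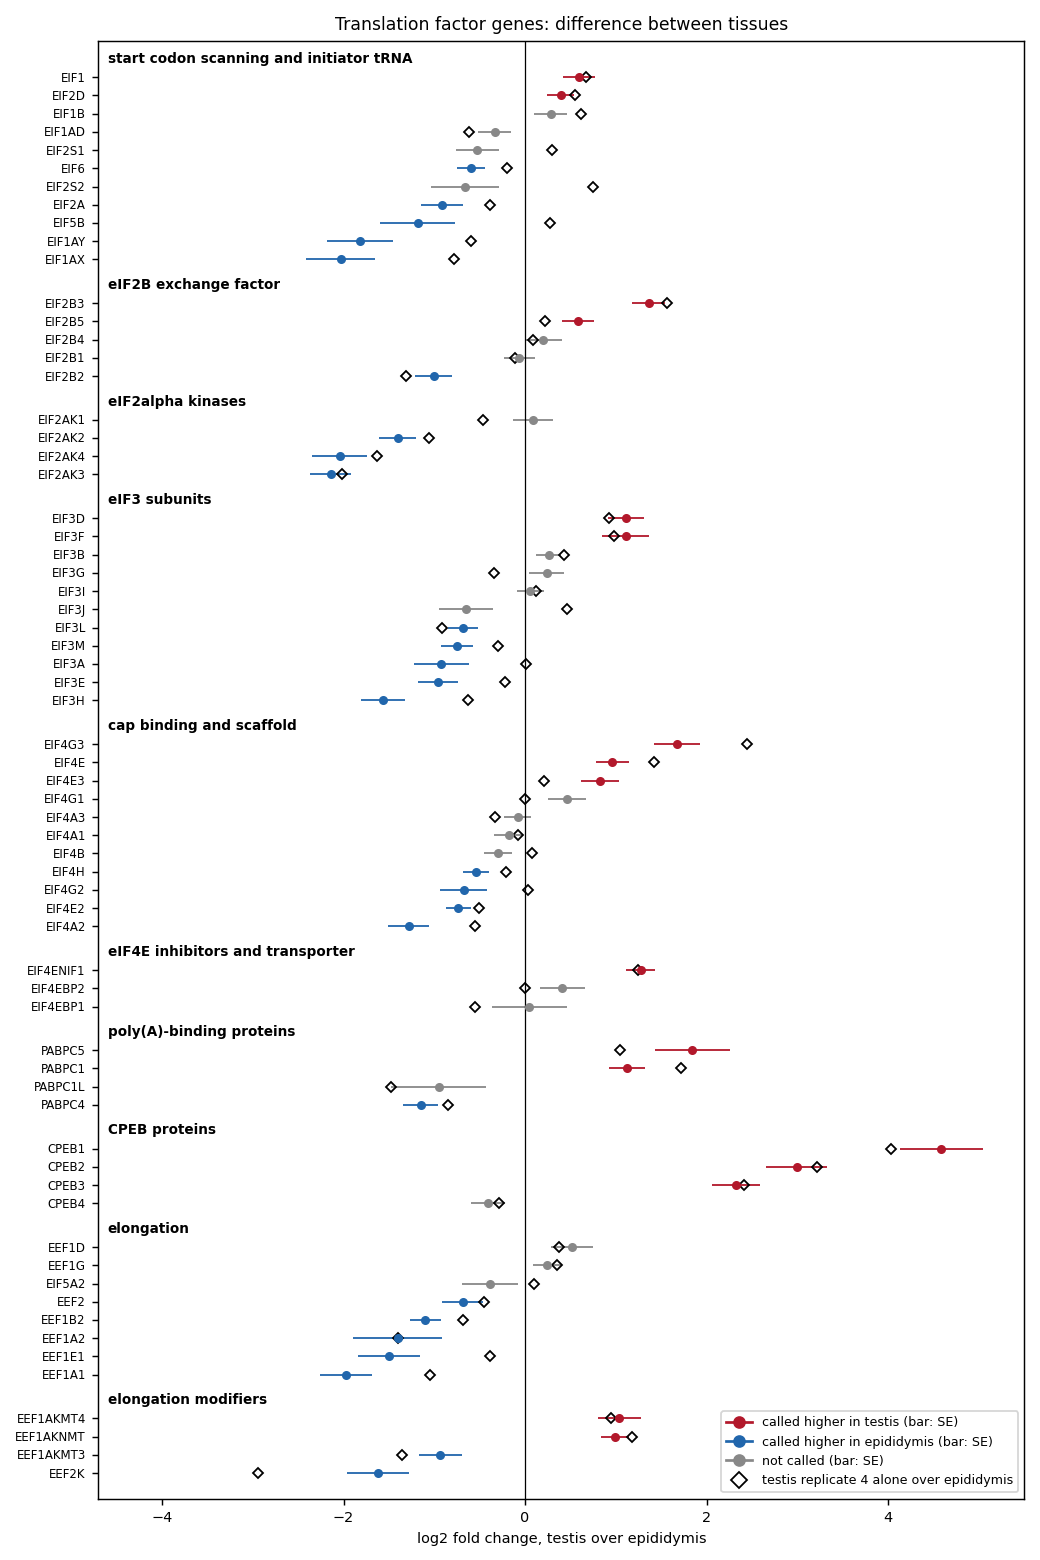
The log2 fold change of testis over epididymis (x axis) is drawn for each of the 65 tested genes, grouped by role. Filled points and bars are the fit over all libraries with its SE (n = 5 each), and open diamonds are testis replicate 4 alone against the 5 epididymis libraries; CPEB1, CPEB2 and CPEB3 lie farthest to the right, and the diamonds of EIF2S2 and EIF5B lie on the other side of 0 from their points.

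CPEB proteins held the largest testis-side differences of the set. CPEB1, CPEB2 and CPEB3 were called higher in testis, and CPEB4 was not called. CPEB1, the founding member of the family, which acts in meiotic germ cells (chromosome 7, 52329054 to 52382408), had 30.4, 24.8, 25.6 and 29.1 CPM in the 4 other testis libraries and 16.1 in replicate 4. In epididymis replicates 1 to 5 it had 0.611, 1.37, 1.96, 1.17 and 0.245 CPM. Testis replicate 4 was the lowest testis library but lay above every epididymis library. The log2 fold change was 4.59 ± 0.46 (SE; edgeR adjusted p = 3.1e-06), and 4.03 for testis replicate 4 alone (edgeR adjusted p = 0.00895).

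CPEB2 (chromosome 8, 10401350 to 10472141) was the most abundant of the family in testis, with 253, 227, 263 and 269 CPM in replicates 1, 2, 3 and 5 and 287 in replicate 4. Epididymis replicates 1 to 5 had 25.9, 12.7, 62.9, 37.0 and 29.0 CPM. The tissues did not overlap, and testis replicate 4 was the highest library of all (log2 2.99 ± 0.34, edgeR adjusted p = 7.8e-06). CPEB3 (chromosome 14, 103675164 to 103871245), a regulator of synaptic translation in neurons, had 105 to 138 CPM in the 4 other testis libraries, 120 in replicate 4 and 10.6 to 31.3 in epididymis (log2 2.32 ± 0.26, edgeR adjusted p = 8.1e-06). CPEB4 (chromosome 16, 50430345 to 50499086) stood at 49.4 ± 4.5 CPM in testis against 66.8 ± 19.8 for the epididymis (SD, n = 5 each), and its libraries overlapped (log2 -0.41 ± 0.19, edgeR adjusted p = 0.0676). In testis replicate 4 it had 50.8 CPM. It was called higher in epididymis without epididymis replicate 2 (log2 -0.47, edgeR adjusted p = 0.0427).

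The make-up of the family thus differed. Per kilobase, CPEB2 led in testis with 36.2 ± 3.09 CPM per kilobase, followed by CPEB3 with 19.4 ± 1.98, CPEB1 with 6.79 ± 1.50 and CPEB4 with 5.28 ± 0.480. In epididymis the order began with CPEB4 at 7.13 ± 2.12, then CPEB2 at 4.66 ± 2.59 and CPEB3 at 3.97 ± 1.41, whose spreads overlap, and ended with CPEB1 at 0.288 ± 0.180. CPEB4 made up 7.81% ± 0.717 of the family's level per kilobase in testis and 45.7% ± 7.50 in epididymis. To test such shifts, the log2 ratio of paralogs was taken per library from length-scaled reads and compared by an exact two-sided permutation test, for 19 pairs. Its smallest possible p for 5 against 5 libraries is 0.00794, or 0.0168 adjusted over the pairs. The ratios of CPEB1, CPEB2 and CPEB3 to CPEB4 were each higher in testis, by 5.13, 3.53 and 2.78 on the log2 scale (exact permutation p = 0.00794 each, adjusted 0.0168), with 4.48, 3.63 and 2.76 for testis replicate 4.

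Poly(A)-binding proteins split by paralog. PABPC1 (chromosome 4, 36137644 to 36228075), the general cytoplasmic poly(A)-binding protein, had 866, 748, 735 and 867 CPM in the 4 other testis libraries and 1288 in replicate 4. Epididymis replicates 1 to 5 had 463, 390, 334, 473 and 433 CPM, all below the testis libraries (log2 1.12 ± 0.20, edgeR adjusted p = 0.000274). PABPC4 (chromosome 6, 95382295 to 95399452), a paralog first known from activated T cells and platelets, was on the other side, with 36.6 to 46.4 CPM in the 4 other testis libraries, 49.6 in replicate 4 and 69.2 to 124 in epididymis (log2 -1.15 ± 0.19, edgeR adjusted p = 0.000177). Testis replicate 4 alone did not give the call (log2 -0.85, edgeR adjusted p = 0.152). The ratio of PABPC4 to PABPC1 was lower in testis by a log2 difference of -2.23 (exact permutation p = 0.00794, adjusted 0.0168), and by -2.55 for testis replicate 4. PABPC4 accounted for 4.39% ± 0.502 of the family per kilobase in testis and 17.6% ± 2.37 in epididymis.

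The other paralogs were rare. PABPC5, an X-linked gene in mammals, had 1.28 ± 0.626 CPM in testis and 0.359 ± 0.0948 in epididymis without overlap (log2 1.84 ± 0.41, edgeR adjusted p = 0.00148). It was lowest in testis replicate 4, with 0.695 CPM (log2 1.04 alone, edgeR adjusted p = 0.319). PABPC1L, the poly(A)-binding protein of oocytes and early embryos (chromosome 17, 47321259 to 47351905), had 0.267 to 0.629 CPM in testis and 0.0979 to 1.17 in epididymis and was not called (edgeR adjusted p = 0.113). Epididymis replicate 5 held 2 reads of it and the others 18 to 21, and without that library it was called higher in epididymis (log2 -1.26, edgeR adjusted p = 0.00899). PABPC4L had 4 to 13 reads per testis library and 2, 6, 49, 8 and 8 in epididymis replicates 1 to 5, which was too low for the test.

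**Figure D2:**
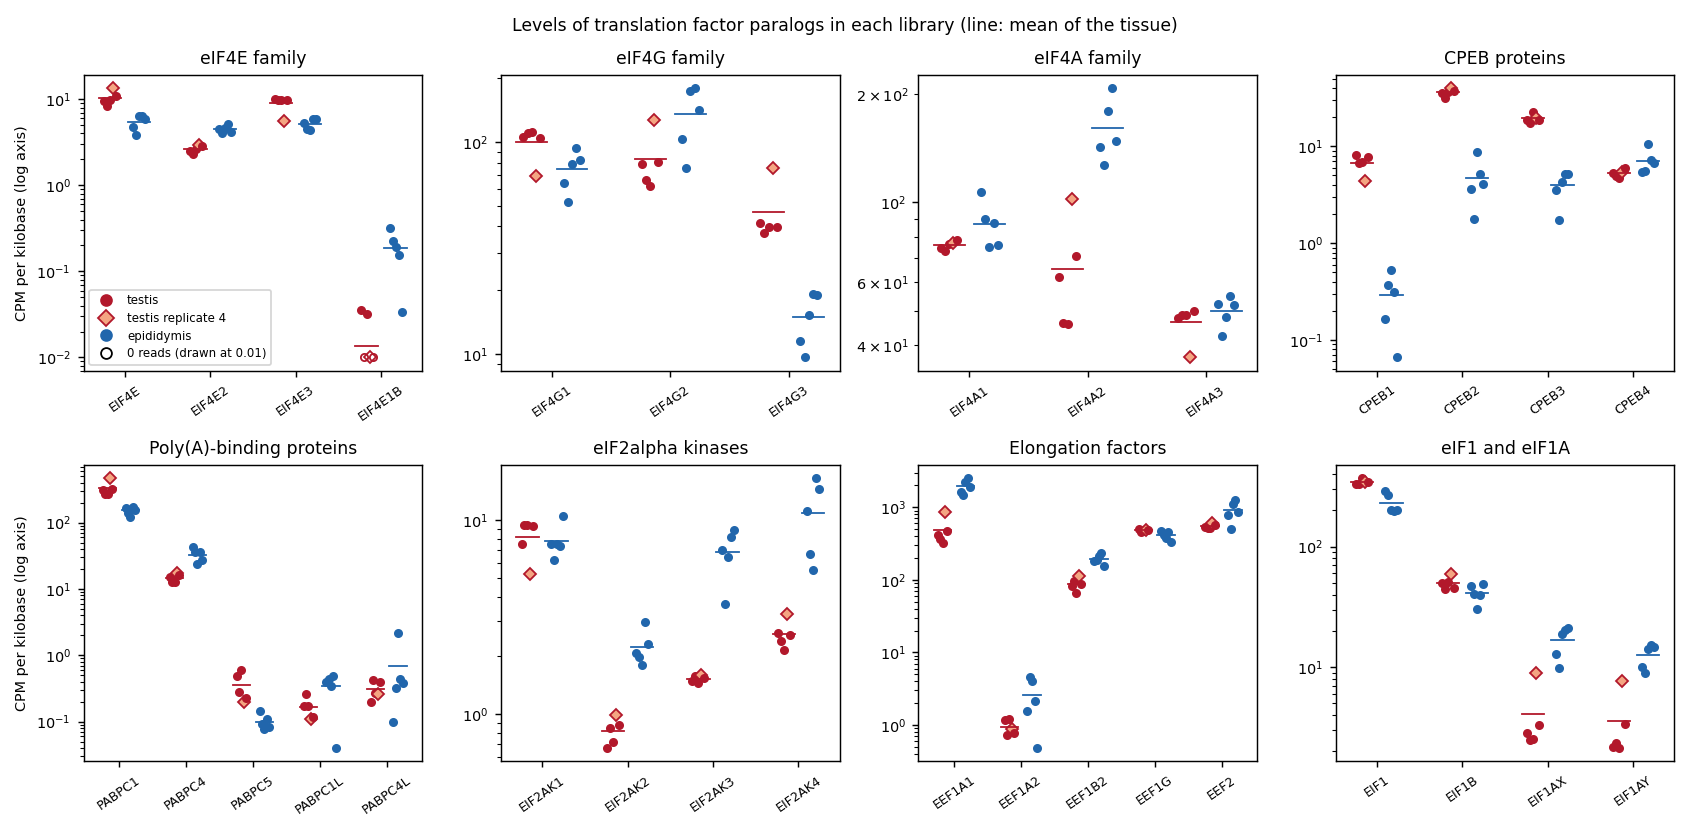
Each point is 1 library, with CPM per kilobase of gene length on a log axis, testis in red, testis replicate 4 as a diamond and epididymis in blue; lines are tissue means (n = 5) and open circles at 0.01 stand for 0 reads. CPEB2 and PABPC1 stand higher in testis while PABPC4, EIF2AK3 and EEF1A1 stand higher in epididymis, and testis replicate 4 leaves the other testis libraries in EIF4G1, EIF4G2, EIF4G3, EIF1AX and EIF1AY.

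Cap binding differed by paralog as well. EIF4E (chromosome 8, 121409633 to 121464467), the main cap-binding protein, had 60.3, 52.5, 62.2 and 68.1 CPM in the 4 other testis libraries, 84.8 in replicate 4, and 29.8, 24.3, 39.7, 40.5 and 36.5 in epididymis replicates 1 to 5. The lowest testis library exceeded the highest epididymis library (log2 0.96 ± 0.18, edgeR adjusted p = 0.000459). EIF4E2 (chromosome 15, 133060054 to 133092624), known as 4EHP, which binds the cap without eIF4G and represses translation, was higher in epididymis, with 55.7 to 72.0 CPM against 32.2 to 40.6 (log2 -0.73 ± 0.14, edgeR adjusted p = 0.000451). In testis replicate 4 it had 40.6 CPM (log2 -0.51, edgeR adjusted p = 0.206).

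The ratio of EIF4E2 to EIF4E was lower in testis by -1.70 on the log2 scale (exact permutation p = 0.00794, adjusted 0.0168), and by -1.95 in testis replicate 4. EIF4E3 (chromosome 13, 53080200 to 53152335), the third cap-binding class, had 35.4 to 35.8 CPM in the 4 other testis libraries, but 20.2 in replicate 4, where epididymis had 15.8 to 21.4. It was called higher in testis (log2 0.82 ± 0.21, edgeR adjusted p = 0.00381), but replicate 4 by itself gave no call (log2 0.21, edgeR adjusted p = 0.664). EIF4E1B (chromosome 2, 81277086 to 81281668), the paralog of oocytes, was close to 0, with 1, 0, 1, 0 and 0 reads in testis replicates 1 to 5 and 9, 6, 6, 4 and 1 in epididymis. Its ratio to EIF4E was called lower in testis (log2 -3.20, exact permutation p = 0.00794, adjusted 0.0168), but it rests on 28 reads in all and on the pseudocount of 1 read.

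The scaffold eIF4G links the cap-binding protein with poly(A)-binding protein and eIF3. EIF4G3 (chromosome 6, 79022222 to 79382062), the paralog whose loss arrests meiosis in male mice, had 269, 242, 258 and 257 CPM in the 4 other testis libraries, 492 in replicate 4, and 74.7, 62.5, 99.7, 125 and 123 in epididymis replicates 1 to 5. The tissues did not overlap (log2 1.67 ± 0.25, edgeR adjusted p = 8.8e-05), and replicate 4 alone gave 2.45 (edgeR adjusted p = 0.00395). EIF4G1 (chromosome 13, 122203488 to 122225371), the main scaffold, had 668 to 711 CPM in the 4 other testis libraries, 443 in replicate 4 and 335 to 597 in epididymis. It was not called (log2 0.46 ± 0.21, edgeR adjusted p = 0.0596). Without testis replicate 4 it was called higher in testis (log2 0.58, edgeR adjusted p = 0.00897), as with DESeq2 size factors in edgeR (log2 0.59, edgeR adjusted p = 0.0197).

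EIF4G2 (chromosome 2, 48666590 to 48678656), also known as DAP5, which lacks the eIF4E site and serves cap-independent starts, had 285 to 370 CPM in the 4 other testis libraries, 588 in replicate 4 and 349 to 829 in epididymis. Its call for the epididymis was weak (log2 -0.68 ± 0.26, edgeR adjusted p = 0.0335). The call ended without any 1 of testis replicates 1, 2, 3 and 5 or epididymis replicates 3, 4 and 5 (edgeR adjusted p = 0.0573 to 0.13), with DESeq2 (adjusted p = 0.0665) and with its size factors in edgeR (0.0759), and testis replicate 4 alone gave a log2 fold change of 0.030. The ratio of EIF4G1 to EIF4G3 was lower in testis by a log2 difference of -1.21 (exact permutation p = 0.00794, adjusted 0.0168). It was -2.47 in testis replicate 4, the only library of all in which EIF4G3 exceeded EIF4G1 per kilobase. EIF4G3 made up 19.98% ± 4.40 of the eIF4G level per kilobase in testis and 6.69% ± 0.755 in epididymis.

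The helicase eIF4A, which unwinds the mRNA before the start codon, showed 1 paralog that differed. EIF4A2 (chromosome 13, 124582822 to 124589296) had 136, 102, 101 and 156 CPM in the 4 other testis libraries, 224 in replicate 4, and 314, 280, 396, 457 and 326 in epididymis replicates 1 to 5. Every epididymis library lay above every testis library (log2 -1.28 ± 0.23, edgeR adjusted p = 0.000282), with -0.55 for replicate 4 alone (edgeR adjusted p = 0.260). EIF4A1 (chromosome 12, 52868479 to 52874248) stood at 235 ± 6.63 CPM in testis against 269.8 ± 40.2 for the epididymis (SD, n = 5 each; log2 -0.18 ± 0.16, edgeR adjusted p = 0.302). The ratio of EIF4A1 to EIF4A2 was higher in testis by 1.16 (exact permutation p = 0.00794, adjusted 0.0168), and by 0.47 in testis replicate 4, whose ratio lay just above the epididymis range. EIF4A3, a core protein of the exon junction complex rather than an initiation factor, had 77.6 ± 8.84 and 83.6 ± 8.08 CPM (log2 -0.08 ± 0.15, edgeR adjusted p = 0.637). EIF4H (chromosome 3, 11321486 to 11348473), which stimulates the helicase, had 206 to 230 CPM in the 4 other testis libraries, 271 in replicate 4 and 317 to 356 in epididymis (log2 -0.54 ± 0.14, edgeR adjusted p = 0.00409), with -0.21 and no call for replicate 4 alone (edgeR adjusted p = 0.582).

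Of the proteins that hold eIF4E back, EIF4ENIF1 was the exception in being called. EIF4ENIF1 (chromosome 14, 48156835 to 48204701), the transporter 4E-T of eIF4E, a part of the granules of stored mRNA, had 78.3 to 97.8 CPM in the 4 other testis libraries, 78.9 in replicate 4 and 25.9 to 40.9 in epididymis (log2 1.27 ± 0.16, edgeR adjusted p = 2.0e-05). Replicate 4 alone gave 1.25 (edgeR adjusted p = 0.0252). EIF4EBP1, the binding protein released from eIF4E by mTOR signalling, had 34.8 ± 8.92 CPM in testis and 33.9 ± 20.5 in epididymis, where replicates 1 and 2 had 57.3 and 54.3 and the others 12.6 to 24.7 (edgeR adjusted p = 0.927). EIF4EBP2 had 144 ± 28.4 and 111 ± 38.9 CPM (log2 0.41 ± 0.25, edgeR adjusted p = 0.151). Testis replicate 4 was the lowest testis library for both, with 21.7 CPM of EIF4EBP1 and 103 of EIF4EBP2.

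Of the 4 kinases that phosphorylate eIF2alpha and so damp initiation under stress, 3 were called higher in epididymis, each beyond 2-fold. Of all genes, 37.8% were called higher in epididymis, and 23.4% beyond 2-fold. EIF2AK3 (chromosome 3, 57423894 to 57506247), called PERK, the sensor of unfolded proteins in the endoplasmic reticulum, had 9.53, 10.1, 9.26 and 9.85 CPM in the 4 other testis libraries, 10.2 in replicate 4, and 44.8, 23.6, 41.6, 52.6 and 57.0 in epididymis replicates 1 to 5. The testis libraries lay within 1 CPM of each other and all below the epididymis (log2 -2.14 ± 0.23, edgeR adjusted p = 5.3e-06). Replicate 4 by itself kept the call (log2 -2.01, edgeR adjusted p = 0.0373).

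EIF2AK4 (chromosome 1, 131244818 to 131355240), called GCN2, the sensor of amino acid shortage, had 14.7 to 17.9 CPM in the 4 other testis libraries, 22.6 in replicate 4 and 37.8 to 113 in epididymis (log2 -2.04 ± 0.30, edgeR adjusted p = 6.2e-05). EIF2AK2 (chromosome 3, 103041029 to 103096741), called PKR, which senses double-stranded RNA, had 5.99 to 7.84, 8.82 and 15.9 to 26.6 CPM in the same order (log2 -1.40 ± 0.20, edgeR adjusted p = 5.1e-05). With testis replicate 4 alone neither kept its call (edgeR adjusted p = 0.123 and 0.0954). EIF2AK1 (chromosome 3, 5075026 to 5113390), called HRI, the haem-regulated kinase of red cell precursors, had 50.5 to 63.7 CPM in the 4 other testis libraries, 35.6 in replicate 4 and 42.0 to 70.8 in epididymis (edgeR adjusted p = 0.729). The ratio of EIF2AK1 to EIF2AK2 was higher in testis by 1.47 on the log2 scale (exact permutation p = 0.00794, adjusted 0.0168), and by 0.59 in testis replicate 4. EIF2AK1 made up 61.8% ± 8.43 of the 4 kinases per kilobase in testis and 47.5% in replicate 4, against 21.0% to 35.4% in the epididymis libraries.

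**Figure D3:**
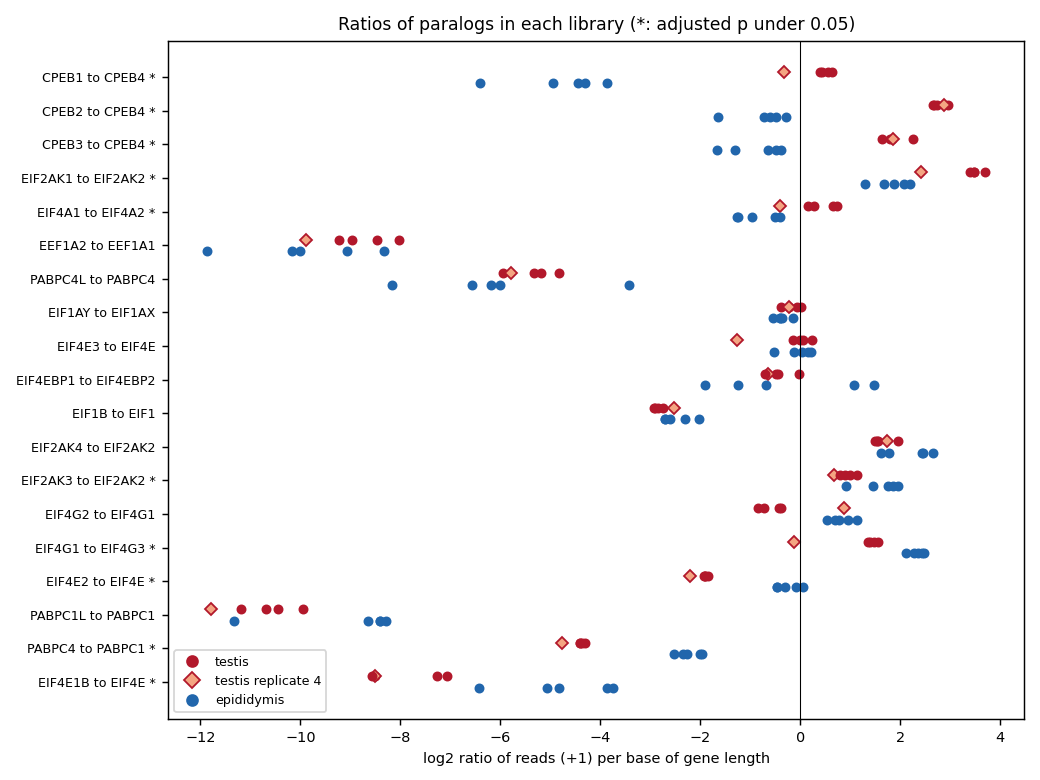
The log2 ratio of length-scaled reads (x axis, reads + 1) is drawn for the 19 pairs of paralogs, 1 point per library, testis in red with replicate 4 as a diamond and epididymis in blue. Stars mark the 10 pairs with an adjusted exact permutation p under 0.05. The ratios of CPEB1, CPEB2 and CPEB3 to CPEB4 are apart by 2.78 to 5.13. Testis replicate 4 is outside the epididymis range in all 10 pairs. This is in part built in, since that library took part in making the calls.

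In total 10 of the 19 ratios differed between the tissues, 5 in each direction. The tenth was EIF2AK3 to EIF2AK2, lower in testis by a log2 difference of -0.69 (exact permutation p = 0.0238, adjusted 0.0452), a call that ended without any 1 library other than epididymis replicate 2 (exact permutation, adjusted p = 0.0548 to 0.0905). EIF4G2 to EIF4G1 was not called (log2 -1.12, exact permutation, adjusted p = 0.0548), but was called without testis replicate 4 (log2 -1.41, exact permutation, adjusted p = 0.0274). The ratio of EIF1B to EIF1 behaved in the same way (log2 -0.32, exact permutation, adjusted p = 0.0862, and -0.38 with 0.0274 without that library). Without epididymis replicate 5 the ratio of PABPC1L to PABPC1 gained a call (log2 -2.37 in place of -1.79, exact permutation, adjusted p = 0.0302 in place of 0.0628). Without epididymis replicate 3 that of PABPC4L to PABPC4 did (log2 1.32 in place of 0.66, exact permutation, adjusted p = 0.0302 in place of 0.514), on few reads of PABPC4L. When labels were exchanged only within boars, the smallest exact permutation p for 5 pairs was 0.0625, so that no ratio could be called.

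Another 11 genes were grouped as start codon selection and initiator tRNA, with EIF5B, EIF6 and EIF1AD counted among them. Of these 11 genes, 5 were called higher in epididymis and 2 in testis, beside 37.8% and 36.6% of all genes. Their median log2 fold change was -0.60, against -0.07 for all genes. With testis replicate 4 alone no call of this group held and the median turned to 0.27, against -0.19 for all genes. EIF1AX (chromosome X, 16429625 to 16449581), which encodes eIF1A and keeps the scanning ribosome open, had 12.6, 10.96, 11.2 and 14.5 CPM in the 4 other testis libraries, 39.5 in replicate 4, and 56.5, 43.4, 83.1, 89.0 and 93.1 in epididymis replicates 1 to 5. EIF1AY (chromosome Y, 9687350 to 9704489), its Y-linked copy, had 3.61 to 5.63 CPM in the 4 other testis libraries, 12.9 in replicate 4 and 15.0 to 25.5 in epididymis. In both genes replicate 4 lay between the other testis libraries and the epididymis.

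The log2 fold changes were -2.03 ± 0.38 for EIF1AX (edgeR adjusted p = 0.000409) and -1.82 ± 0.36 for EIF1AY (edgeR adjusted p = 0.000693). Replicate 4 alone gave -0.78 and -0.60 (edgeR adjusted p = 0.253 and 0.309). The copies are close in sequence, so reads may have been split between their rows. The ratio of EIF1AY to EIF1AX did not differ at this spread (log2 0.20, exact permutation, adjusted p = 0.111). EIF1 (chromosome 12, 20974498 to 20977075), the partner of eIF1A in start codon choice, was on the testis side with 428 to 478 CPM against 254 to 370 (log2 0.59 ± 0.18, edgeR adjusted p = 0.00954), where replicate 4 had 443 (log2 0.68 alone, edgeR adjusted p = 0.169). EIF1B had 49.0 ± 5.88 and 40.6 ± 7.06 CPM (edgeR adjusted p = 0.176), and EIF1AD, a nuclear protein related to eIF1A, 32.1 ± 4.87 and 41.2 ± 6.69 (edgeR adjusted p = 0.111). In testis replicate 4, EIF1B had 58.2 CPM and EIF1AD 25.0. EIF1AD was called higher in epididymis without epididymis replicate 2 (log2 -0.43, edgeR adjusted p = 0.0317).

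For the tested subunits of eIF2 and for eIF5B, testis replicate 4 lay above the other testis libraries. EIF5B (chromosome 3, 54861759 to 54930826), the GTPase that joins the ribosomal subunits, had 26.4, 24.4, 28.3 and 29.7 CPM in the 4 other testis libraries, 114 in replicate 4, and 98.7, 118, 78.5, 103 and 105 in epididymis replicates 1 to 5. EIF2S2 (chromosome 17, 37551182 to 37570269), the beta subunit of eIF2, which carries the initiator tRNA, had 24.8 to 28.5 CPM in the 4 other testis libraries, 104 in replicate 4 and 64.5 to 70.0 in epididymis. Testis replicate 4 was thus at the epididymis level in EIF5B and above every epididymis library in EIF2S2. The call for EIF5B (log2 -1.18 ± 0.41, edgeR adjusted p = 0.0200) was lost without any 1 of testis replicates 1, 2, 3 and 5 or epididymis replicate 2 (edgeR adjusted p = 0.0531 to 0.0742), and replicate 4 alone gave 0.27. EIF2S2 was not called (log2 -0.66 ± 0.38, edgeR adjusted p = 0.131), but without testis replicate 4 it was called higher in epididymis (log2 -1.29, edgeR adjusted p = 5.5e-06).

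EIF2S1, the alpha subunit that the kinases phosphorylate, had 16.9 to 25.3 CPM in the 4 other testis libraries, 41.5 in replicate 4 and 29.6 to 41.2 in epididymis. It too was called only without replicate 4 or with the boar as a block (log2 -0.77 and -0.58, edgeR adjusted p = 0.00174 and 0.0449, against -0.53 and 0.0609 with all libraries). The block also gave a call for EIF2S2 (log2 -0.93, edgeR adjusted p = 0.0300). In the fit with that block, 16 of the 65 genes had a testis call and 28 an epididymis call (36.6% and 35.2% of all genes, or 71.8% in either direction). EIF6, which keeps ribosomal subunits apart, was higher in epididymis (170 ± 23.4 against 261 ± 33.6 CPM, log2 -0.60 ± 0.16, edgeR adjusted p = 0.00405). It had 153 to 165 CPM in the 4 other testis libraries, 211 in replicate 4 and 212 to 304 in epididymis (log2 -0.20 for replicate 4 alone). EIF2A, an alternative carrier of initiator tRNA, had 27.1 ± 6.19 and 51.9 ± 15.6 CPM (log2 -0.91 ± 0.23, edgeR adjusted p = 0.00345), and EIF2D 44.0 ± 2.28 and 34.0 ± 4.98 (log2 0.39 ± 0.15, edgeR adjusted p = 0.0352). For EIF2A, testis replicate 4 (37.0 CPM) lay within the epididymis range of 33.1 to 67.3, and the 4 other testis libraries had 20.6 to 27.5. For EIF2D, replicate 4 had 46.3 CPM. The call for EIF2D ended with the boar as a block (edgeR adjusted p = 0.0846), without the filter on low counts (0.0741), without composition factors (0.0505) and without any 1 of testis replicate 5 and epididymis replicates 2, 3 and 5 (0.0515 to 0.0879).

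Among the 5 subunits of eIF2B, which reloads eIF2 with GTP, 2 were called higher in testis and 1 in epididymis. Of all genes, 36.6% and 37.8% were so called. EIF2B3 (chromosome 6, 166353918 to 166487581), the gamma subunit, had 46.2 to 67.0 CPM in the 4 other testis libraries, 59.0 in replicate 4 and 16.8 to 24.7 in epididymis (log2 1.36 ± 0.18, edgeR adjusted p = 2.7e-05). EIF2B5, the catalytic epsilon subunit, averaged 121 ± 19.5 CPM in testis, 88.8 in replicate 4, and 81.7 ± 8.96 in epididymis (log2 0.58 ± 0.17, edgeR adjusted p = 0.00889). EIF2B2, the beta subunit, went the other way with 35.2 ± 5.09 against 72.0 ± 17.8 CPM (log2 -1.01 ± 0.21, edgeR adjusted p = 0.000791). Replicate 4 had 27.0 CPM of EIF2B2, the lowest of the testis libraries (log2 -1.31 alone). EIF2B1 and EIF2B4, the alpha and delta subunits, had log2 fold changes of -0.06 and 0.20 and were not called (edgeR adjusted p = 0.745 and 0.387). The subunits of this 1 complex thus spread over log2 fold changes of -1.01 to 1.36.

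The subunits of eIF3, the largest initiation factor, which docks the mRNA complex on the small ribosomal subunit, also went both ways. Of 11, 2 were called higher in testis and 5 in epididymis (36.6% and 37.8% of all genes), with a median log2 fold change of -0.65. With testis replicate 4 alone no call of these subunits held, and the median was 0.0076. EIF3F (chromosome 9, 1291660 to 1297987) had 608, 438, 474 and 316 CPM in the 4 other testis libraries, 381 in replicate 4 and 138 to 296 in epididymis (log2 1.11 ± 0.26, edgeR adjusted p = 0.00217). EIF3D (chromosome 5, 11213312 to 11229158), the subunit that can bind the cap itself, had 427 to 478 CPM in the 4 other testis libraries, 362 in replicate 4 and 157 to 261 in epididymis (log2 1.11 ± 0.20, edgeR adjusted p = 0.000315). Both lost the call with replicate 4 alone (log2 0.98 and 0.92, edgeR adjusted p = 0.116 and 0.0901).

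EIF3H (chromosome 4, 21955026 to 22053683) stood at the other end, with 39.4 to 46.4 CPM in the 4 other testis libraries, 97.8 in replicate 4 and 140 to 175 in epididymis (log2 -1.57 ± 0.24, edgeR adjusted p = 9.5e-05). EIF3E, EIF3A, EIF3M and EIF3L were the other 4, with log2 fold changes of -0.96, -0.92, -0.75 and -0.68 (edgeR adjusted p = 0.00192, 0.0151, 0.00218 and 0.00254). EIF3A, the scaffold of the complex, had 200 CPM in testis replicate 4 against 74.6 to 106 in the other testis libraries, and 116 to 280 in epididymis. Its call was lost without testis replicate 1 or 3 (edgeR adjusted p = 0.0613 and 0.0660), and replicate 4 alone gave a log2 fold change of 0.0076. EIF3J had 10.9 to 13.5 CPM in the other testis libraries, 33.7 in replicate 4 and 22.8 to 29.9 in epididymis, and was called only without replicate 4 or with the boar as a block (log2 -1.06 and -0.78, edgeR adjusted p = 9.5e-05 and 0.0268). Summed over the 11 subunits, the level was 1793 to 2034 CPM in testis and 1601 to 1864 in epididymis.

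Elongation factors, with EEF1E1 counted among them, were the part of the set with the highest levels. Of 8, 5 were called higher in epididymis (37.8% of all genes) and the other 3 were not called. No call of this group held with testis replicate 4 alone, where its median log2 fold change was -0.42 in place of -0.89. DESeq2, run on the same genes, called EEF1D and EEF1G higher in testis (log2 0.63 and 0.37, adjusted p = 0.0190 and 0.0114). EEF1A1 (chromosome 1, 92421235 to 92425053), which brings aminoacyl-tRNA to the ribosome, had 1081, 939, 825 and 1193 CPM in the 4 other testis libraries, 2231 in replicate 4, and 4191, 3751, 5685, 6479 and 4839 in epididymis replicates 1 to 5. No testis library reached the epididymis (log2 -1.97 ± 0.28, edgeR adjusted p = 5.4e-05), and replicate 4 was the nearest to it. With that library alone the difference was -1.05 (edgeR adjusted p = 0.103). The gene took 7.32% to 9.81% of all reads on the 67 genes in testis replicates 1, 2, 3 and 5, 15.8% in replicate 4, and 27.5% to 32.7% in epididymis. All 67 genes summed to 11128 to 14123 CPM in testis and 13271 to 19845 in epididymis, and without EEF1A1 to 10189 to 11892 and 9520 to 13365.

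EEF1A2 (chromosome 17, 62517811 to 62526379), the paralog that replaces it in neurons and striated muscle, was rare in both tissues. It had 4.35, 2.68, 4.49 and 2.83 CPM in the 4 other testis libraries, 3.31 in replicate 4, and 5.80, 16.8, 15.2, 8.01 and 1.81 in epididymis replicates 1 to 5. The epididymis libraries spanned both sides of the testis, and the call (log2 -1.40 ± 0.49, edgeR adjusted p = 0.0211) ended with the boar as a block (0.0632) and without testis replicate 2 or 5 or epididymis replicate 2 (edgeR adjusted p = 0.0523, 0.0524 and 0.0623). Of 4 neuron and skeletal muscle markers, CKM had 7.11 to 34.4 CPM in epididymis and 1.71 to 2.38 in testis, and ELAVL4 had 0 to 0.501 and 4.07 to 5.48. The 4 summed to 13.7 to 56.3 CPM in epididymis and 11.8 to 27.8 in testis, and their part in EEF1A2 was not tested. No switch between the EEF1A paralogs was detectable, with EEF1A1 at 99.6% to 99.9% of their sum per kilobase in every testis library and 99.7% to 99.97% in epididymis (ratio, exact permutation, adjusted p = 0.226).

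EEF1B2 (chromosome 15, 109451901 to 109455529), which reloads eEF1A with GTP, had 77.3 to 114 CPM in the 4 other testis libraries, 131 in replicate 4 and 184 to 273 in epididymis (log2 -1.10 ± 0.17, edgeR adjusted p = 0.000100). Its partners in the same exchange complex did not follow. EEF1G (chromosome 2, 9163220 to 9173400) had 1188 ± 50.6 against 1016 ± 134 CPM and EEF1D 589 ± 63.0 against 415 ± 120, and edgeR called neither (adjusted p = 0.184 and 0.0610). In testis replicate 4, EEF1G had 1208 CPM and EEF1D 502. EEF1D gained a testis call when testis replicate 4 or either of epididymis replicates 1 and 2 was left out (edgeR adjusted p = 0.0424, 0.0392 and 0.0123), with DESeq2 size factors in edgeR (0.0307) and without composition factors (0.0464). EEF2 (chromosome 2, 74746541 to 74756687), the translocase, had 1583 to 1753 CPM in the 4 other testis libraries, 1886 in replicate 4 and 1569 to 3869 in epididymis (log2 -0.69 ± 0.22, edgeR adjusted p = 0.0149). That call ended without testis replicate 1 or 3 (edgeR adjusted p = 0.0554 and 0.0574).

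EEF1E1 (chromosome 7, 5368341 to 5390665), a scaffold of the tRNA synthetase complex known as AIMP3, had 2.92 to 4.49 CPM in the 4 other testis libraries, 9.78 in replicate 4 and 8.92 to 17.4 in epididymis (log2 -1.50 ± 0.34, edgeR adjusted p = 0.00167). EIF5A2, the minor paralog of the hypusine-bearing factor eIF5A, had 3.21 ± 0.898 and 4.23 ± 1.39 CPM and was not called (edgeR adjusted p = 0.263). Among the enzymes that modify elongation factors, EEF2K (chromosome 3, 23887120 to 23980231), the kinase that switches eEF2 off, had 20.9, 28.4, 21.3 and 23.2 CPM in the 4 other testis libraries, 7.80 in replicate 4, and 64.7, 45.0, 43.1, 76.6 and 90.3 in epididymis replicates 1 to 5. The tissues were apart (log2 -1.62 ± 0.34, edgeR adjusted p = 0.00105). Testis replicate 4 was farther from the epididymis than any other library (log2 -2.94 alone, edgeR adjusted p = 0.0130), the reverse of EEF1A1.

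The lysine methyltransferases of eEF1A split, with EEF1AKNMT and EEF1AKMT4 higher in testis (33.4 ± 1.75 against 17.1 ± 2.62 and 5.46 ± 0.579 against 2.69 ± 0.560 CPM) and EEF1AKMT3 higher in epididymis (5.81 ± 1.28 against 11.3 ± 2.18). Their log2 fold changes were 0.99, 1.04 and -0.93 (edgeR adjusted p = 9.8e-05, 0.00183 and 0.00357). With replicate 4 alone the log2 fold changes were 1.17, 0.95 and -1.36 in the same order, each in the same direction as before. That library had 35.8, 4.86 and 4.11 CPM. Only EEF1AKNMT kept its call. The SEs of that fit were larger, at 0.31, 0.53 and 0.48 against 0.15, 0.24 and 0.24 with all libraries.

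**Figure D4:**
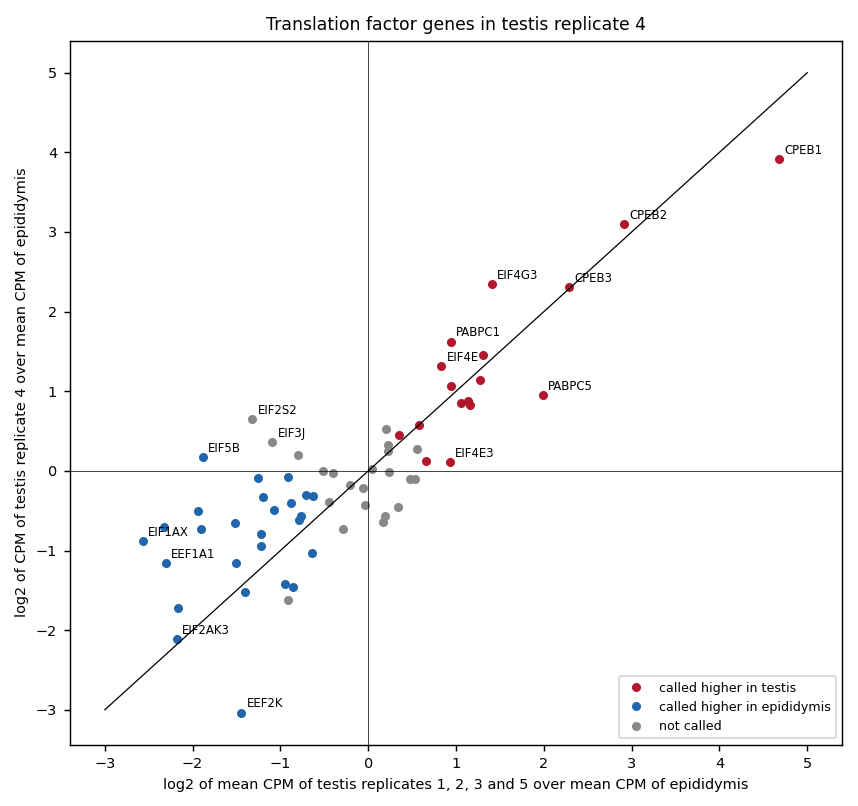
For the 65 tested genes, the log2 of the CPM of testis replicate 4 over the epididymis mean (y axis) is plotted against the same value for the mean of testis replicates 1, 2, 3 and 5 (x axis), and the diagonal marks equality. Of the 26 genes called higher in epididymis, 21 lie with testis replicate 4 above all other testis libraries; EIF2S2 and EIF5B are farthest above the diagonal, at 3.91 and 4.17 times the mean of the other testis libraries, and EEF2K farthest below, at 0.333 times.

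Testis replicate 4 was the highest testis library for 34 of the 65 tested genes and the lowest for 20, where 40.6% and 35.4% of all 17225 genes were so. Replicates 1, 2, 3 and 5 were the highest for 7, 4, 8 and 12 (14.9%, 11.9%, 15.7% and 16.8% of all genes) and the lowest for 4, 21, 18 and 2 (13.3%, 21%, 20.3% and 9.22%). Of the 26 genes called higher in epididymis it was above the other testis libraries in 21 and below them in 4, where 46.8% and 24.4% of all genes so called were. Of the 17 called higher in testis it was above in 6, below in 6 and among them in 5 (38% and 41.7% of all genes so called were above and below). Its level exceeded 2 times the mean of the other 4 for 10 genes, led by EIF5B, EIF2S2, EIF1AX and EIF1AY (4.17, 3.91, 3.21 and 3.07 times), and was under 1 in 2 for EEF2K and PABPC5 (0.333 and 0.489 times). The share of all genes beyond these limits was not computed, so the counts are not read as particular to translation factors. Against the epididymis alone, replicate 4 lay above every library for 15 of the 17 testis-side genes (91.2% of all such genes) and below every library for 18 of the 26 epididymis-side genes (84.8%). Since it took part in making those calls, these counts are in part built in. The calls that held with replicate 4 alone were CPEB1, CPEB2, CPEB3, EIF4G3, PABPC1, EIF2B3, EIF4E, EIF4ENIF1 and EEF1AKNMT on the testis side and EIF2AK3 and EEF2K on the other. In the sign of the log2 fold change 11 genes turned, of which EIF5B, EIF3A and EIF4G2 had been called. With replicate 4 alone EIF3A and EIF4G2 came only to about 0 (log2 0.0076 and 0.030), and EIF5B to 0.27. The share of all genes that turned is not given here, so this count is not read as particular to translation factors. Without testis replicate 4, edgeR called 20 of the 65 higher in testis and 30 higher in epididymis (37.9% and 38.2% of 18013 genes, or 76.1% in either direction). In the epididymis, replicate 4, from the same boar, was the highest library for 30 of the 65 genes, against 21.2% of all genes. Replicates 1, 2, 3 and 5 were the highest for 13, 8, 6 and 8 (10.4%, 21.4%, 31.9% and 14.1% of all genes).

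Other genes of translation that are not factors of the set were taken from lists of their role, whose counts stand beside 36.6% of all genes called higher in testis and 37.8% in epididymis. Of 8 genes of termination and recycling, edgeR called 4 higher in epididymis, and ETF1 and GSPT1, the release factors, were among the 4 not called. The largest differences were those of MCTS1 and GSPT2. MCTS1, a recycling factor, had 0.131 ± 0.0944 CPM in testis and 1.62 ± 0.447 in epididymis. Its testis values lay near the floor of 3 reads (0.0993 to 0.167 CPM), so the size of its difference is uncertain. They were 0.0331 to 0.164 CPM in the 4 other testis libraries and 0.267 in replicate 4. GSPT2, a paralog of the release factor GSPT1, had 16.8 ± 11.03 and 58.6 ± 32.9 CPM. It had 10.7 to 12.9 CPM in the 4 other testis libraries. Replicate 4, at 36.5, lay within the epididymis range of 35.3 to 114 (log2 -0.57 alone, -1.79 with all libraries). Of 16 tested partners of poly(A)-binding and CPEB proteins, 7 were called higher in testis and 2 in epididymis, with a median log2 fold change of 0.34. BOLL, a germ cell protein that promotes translation, had 80.3 to 106 CPM in testis, 90.0 in replicate 4, and 0.0509 to 0.638 in epididymis (log2 8.60 ± 0.50, edgeR adjusted p = 6.0e-08). SYMPK, the scaffold that CPEB1 uses in polyadenylation, averaged 368 ± 68.4 CPM in testis and only 61.3 ± 6.24 in epididymal tissue (log2 2.61 ± 0.19, edgeR adjusted p = 3.1e-07), and PATL1, a decapping protein of mRNA granules, 86.5 ± 3.30 against 29.8 ± 3.65. In testis replicate 4, SYMPK had 251 CPM and PATL1 87.2 (log2 2.13 and 1.65 alone). TENT2, the poly(A) polymerase known as GLD2, was on the epididymis side with 16.1 ± 1.65 against 31.9 ± 4.57 CPM (log2 -0.97 ± 0.17, edgeR adjusted p = 0.000208).

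Of 9 genes that signal to initiation, 2 were called higher in testis and 5 in epididymis. MTOR, the kinase itself, averaged 454 ± 55.8 CPM in testis against 117 ± 23.9 for the epididymis (log2 1.99 ± 0.19, edgeR adjusted p = 1.8e-06), whereas RPS6KB1 and RPS6KB2, the S6 kinases it activates, had log2 fold changes of -1.37 and -2.30 (edgeR adjusted p = 7.0e-05 and 0.000108). PDCD4, an inhibitor of eIF4A, had 14.6 ± 3.61 against 93.7 ± 24.0 CPM (log2 -2.66 ± 0.21, edgeR adjusted p = 5.4e-07). Of 3 tested helicases beside eIF4A, DHX29 was called, at 8.31 ± 3.60 CPM against 32.3 ± 9.33, and of 2 enzymes that make hypusine on eIF5A, DOHH, with 10.8 ± 3.34 and 24.8 ± 5.35. In testis replicate 4, DHX29 had 14.6 CPM and DOHH 16.7 (log2 -1.03 and -0.47 alone). The 9 mitochondrial translation factors went both ways, with 3 higher in testis and 5 in epididymis. GFM1, a mitochondrial elongation factor, had 69.1 to 84.1 CPM in the 4 other testis libraries, 226 in replicate 4 and 16.4 to 29.0 in epididymis (log2 2.14 ± 0.34, edgeR adjusted p = 0.000116). MTIF3, a mitochondrial initiation factor, had 3.83 ± 1.20 and 12.7 ± 1.50 CPM (log2 -1.72 ± 0.24, edgeR adjusted p = 4.3e-05). For testis replicate 4 alone, 6 of the 16 partners were called higher in testis and 1 in epididymis, 1 signalling gene in each direction, and 3 mitochondrial factors higher in testis.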

How the data were processed

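Short-read RNA libraries of testis and epididymis (5 each) were analysed. Per the labels' protocols, oligo(dT) beads selected poly(A) RNA, and PCR followed the ligation of adapters. Per the submitters' processing notes, cutadapt 3.0, STAR and featureCounts (Subread) were used with the build Sscrofa11.1. Annotation release, strand setting and the handling of reads with several matches: not given in the sources used here. Genes with near-identical copies (such as EIF1AX and EIF1AY) or an overlapping gene are therefore uncertain. The deposited files hold whole read counts and a length for each gene; CPM was computed from the column totals. Identifiers were matched to symbols with a supplied table (810 of 15226 named), and coordinates are whole genes of RefSeq on Sscrofa11.1, counted from 1.

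edgeR 4.0.16 in R 4.3.3 was used (filterByExpr, TMM, robust quasi-likelihood test with tissue as the only term, Benjamini-Hochberg adjustment over 17225 genes, glmTreat for 2-fold). It was also run on simulated counts with few changed genes and the same dispersion for every gene. In these data 74.4% of genes were called, so that run cannot show how the test behaves here. SEs are approximate (log2 fold change before shrinkage over the square root of F). Ratios used an exact permutation test in scipy. DESeq2 1.42.0, other scalings, no filter, left-out libraries, testis replicate 4 alone and the boar as a block were tried. Boars pair the libraries, per the animal numbers in the file headers, although the deviations of same-numbered libraries correlated across genes at 0.006 to 0.097. No 2 libraries agreed within sampling noise (lowest chi-square per degree of freedom 9.53). With 3 reads as the limit that a count of 0 allows, the floor is 0.0993 to 0.167 CPM. Counts from PCR-amplified cDNA have counting error only in such limits, and p-values measure the spread between libraries. Genes were named by a rule: 10 paralog families, the 10 largest called differences each way, the 5 highest levels per tissue, and those whose call testis replicate 4 alone changed. EIF2S1, EIF2S2, EIF2B1, EIF2B4, EIF3J, EEF1D, EEF1AKNMT and the genes of other lists were named after their values were seen. Members, lists and pairs were chosen with earlier results of these data known.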

Additional observations from a re-analysis of the deposited data

Results flagged for a closer look

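In 130 groups (65 genes in 2 tissues), 1 library stood apart from the other 4 of its tissue in 19. The rule flags about 1 in 20 groups by chance where groups are independent. Here all genes share the same libraries, so that rate is no measure of chance for the count. In 18 of the 19 the library that stood apart was testis replicate 4. The share of all genes flagged in this way was not computed. Testis replicate 4 was the highest testis library for 40.6% of all 17225 genes and the lowest for 35.4%. It was far above the other testis libraries in 13 genes. Its levels there were 588 CPM for EIF4G2, 492 for EIF4G3, 200 for EIF3A, 97.8 for EIF3H, 33.7 for EIF3J, 2231 for EEF1A1, 9.78 for EEF1E1, 1288 for PABPC1, 39.5 for EIF1AX, 12.9 for EIF1AY, 104 for EIF2S2, 114 for EIF5B and 211 for EIF6. It was far below them in 5 genes, with 62.0 CPM for EIF4A3 (others 79.7 to 83.4), 20.2 for EIF4E3 (35.4 to 35.8), 443 for EIF4G1 (668 to 711), 171 for EIF3G (279 to 313) and 138 for EIF3L (177 to 191). The exception was EIF1AD, with 29.4 CPM in epididymis replicate 2 against 42.5 to 45.1 in the other epididymis libraries.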

How the results depend on the processing

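Setting testis replicate 4 alone against the epididymis, 9 genes were called higher in testis in place of 17 and 2 higher in epididymis in place of 26 (beyond 2-fold, 1 in place of 9 in epididymis). That fit has 1 library on the testis side, assumed to vary like the epididymis. DESeq2 called 3 beyond 2-fold in epididymis in place of 9. Leaving out single libraries gave 16 to 20 and 22 to 30 calls, and 9 to 11 ratios in place of 10. Without testis replicate 4 and epididymis replicate 3 together, a choice made after seeing the data, the calls were 19 and 29. DESeq2 size factors raised the median log2 fold change of all genes by 0.13. With the boar as a replicate block, 16 and 28 genes were called, with 2 calls lost (EEF1A2 and EIF2D) and 3 gained (EIF2S1, EIF2S2 and EIF3J) and no other changed, and 0 ratios, since 5 pairs cannot reach the threshold. Of the called genes, EIF4G2, EIF3A and EIF5B turned direction with testis replicate 4 alone (log2 0.030, 0.0076 and 0.27), and of those not called EIF2AK1 (-0.47), EIF4EBP1 (-0.55) and EIF5A2 (0.10) were among those that did. EIF4A3 turned with DESeq2 and with its size factors (0.041 and 0.040). EIF4EBP1 turned without testis replicate 2 (-0.08), without epididymis replicates 3, 4 or 5 (-0.19, -0.13 and -0.07; range over left-out libraries -0.19 to 0.34), and without testis replicate 4 and epididymis replicate 3 together (-0.05). The ratio of EIF4E3 to EIF4E turned without testis replicate 4 (0.088; range -0.29 to 0.088) and that of EIF4EBP1 to EIF4EBP2 without epididymis replicate 1 or 2 (0.13 and 0.23; range -0.62 to 0.23). The cause was not tested. EIF4E1B, PABPC4L and PABPC1L, with few reads in every library or most, are limited by depth.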
